A study of Mus musculus with 6 samples.

Results

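The ephrins, semaphorins and netrins and the receptors that bind them were followed in whole mouse kidneys (metanephros, the embryonic kidney) that lack working Wnt4, a secreted signal without which mesenchyme does not form renal vesicles, the epithelial precursors of nephrons. Members were all genes whose current symbol starts with Sema, Plxn, Efna, Efnb, Epha, Ephb, Slit, Robo, Ntn or Unc5, plus Nrp1 and Nrp2, each read through its probe set with the highest mean signal. The rule found 44 of the 8251 named genes, through 57 of 12422 probe sets: 25 ligands, 18 receptors and Unc50, a gene that shares letters with the Unc5 receptors but is no guidance receptor. No Slit gene, Nrp2 or Robo2 was among them, and these were not analysed here. The RNA came from Wnt4 mutant kidneys (allele Wnt4tm1Amc, strain label 129, 2 arrays, each a pool of 8 to 10 kidneys from 4 to 5 embryos) and wild-type kidneys (strain label CD-1, 4 arrays, each a pool of 2 kidneys), all at E14.5. Each pool went onto its own one-colour Affymetrix MG_U74Av2 array after 1 round of amplification. Every sample's protocol, the mutant ones included, describes matings of CD-1 mice. Genotype, strain label and pool size cannot be told apart.

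Guidance cues were named for steering axons, and the same proteins shape epithelia and vessels. Ephrins are membrane-bound ligands of the Eph receptor tyrosine kinases: the A class is anchored by a lipid, the B class spans the membrane, and each mostly binds Eph receptors of its own class. Semaphorins signal through plexins, the secreted class 3 members with a neuropilin as co-receptor. Netrins are secreted proteins read by Dcc, neogenin (Neo1) and the Unc5 receptors. In the mouse kidney, Slit2 acting on Robo2 is known to restrict the expression of Gdnf, a factor secreted by mesenchyme towards which the ureteric bud grows.

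Values are probe set signals that the authors had scaled to a common level on every array, and differences are Wnt4 mutant minus wild type in log2(signal + 16), tested with limma. A probe set was tested if it exceeded the 40th percentile of its array (106.8 to 110.4 on mutant arrays, 101.1 to 109.5 on wild-type arrays) on at least 2 arrays. Correlations of log2 signals were 0.969 between the mutant arrays, 0.939 to 0.969 among wild-type arrays and 0.918 to 0.934 between groups. Wnt4 itself had 54.4 ± 28.0 in the mutant (SD, n = 2) and 803 ± 110 in the wild type (SD, n = 4), as the labels say. The bacterial hybridization control BioB, at its middle probe set, read 929.6 and 950.0 on mutant arrays and 1645 to 1903 on wild-type arrays, a gap whose part in the results was not tested. Some kidney markers, among them Six2, Uncx and Foxd1, were above the filter on every array, while others were above it on wild-type arrays only. Six2 of nephron progenitors had 2550.0 ± 131 in the mutant and 2762 ± 160 in the wild type (SD). Uncx of the same cells fell (919 ± 98.8 in the mutant, 2332 ± 166 in the wild type). Foxd1 of the stroma had 4721 ± 40.3 in the mutant and 1397 ± 141 in the wild type.

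Several cell type marker lists moved with genotype. Renal vesicle and nephron tubule markers summed to 1345 and 1533 on the mutant arrays and 6177 to 8249 on wild-type arrays, with 11 of 13 tested genes lower and 0 higher. Of those 11, 6 (Wnt4, the mutated gene, with Fgf8, Dll1, Slc34a1, Slc12a1 and Slc22a6) were above the filter on wild-type arrays only, so their direction was set by the filter. Stromal markers summed to 39740 and 39823 on mutant arrays against 22102 to 25017 on wild-type arrays, with 8 of 14 higher and 0 lower. Pdgfrb of this list pointed the other way without passing (-0.68, limma adjusted p = 0.0713). It read 207 and 218 on mutant arrays, below every wild-type array (264 to 430). Skeletal muscle markers summed to 5814 and 6222 on mutant arrays against 1642 to 2211 on wild-type arrays, with 6 of 11 tested genes higher and 5 further ones below the filter. Of those 6, Tnnc1 was above the filter on mutant arrays only. Endothelial markers summed to 5845 and 6005 on mutant arrays against 8278 to 8774 on wild-type arrays, with 5 of 11 lower, of which Nos3 was above the filter on wild-type arrays only. Nephron progenitor markers summed to 10229 and 10706 on mutant arrays against 11717 to 13418 on wild-type arrays, with 3 of 10 lower (Uncx, Cited1 and Meox2). Podocyte markers summed to 4325 and 4419 on mutant arrays against 4943 to 5780 on wild-type arrays. Of the 5 tested, 3 were lower (Ptpro, Npnt and Vegfa), of which Ptpro was above the filter on wild-type arrays only. Most of each sum was Tcf21, also in the stromal list, which did not pass (0.13). Tcf21 read 3440 and 3701 on mutant arrays and 3093 to 3360 on wild-type arrays. Npnt had 471 ± 10.2 in the mutant and 1265 ± 198 in the wild type (SD). Ureteric bud markers summed to 8983 and 9166 on mutant arrays against 7906 to 8621 on wild-type arrays. Of the 9 tested, 3 were higher (the keratins Krt8, Krt18 and Krt7) and 1 was lower (Calb1). Ret was not tested, and read 8.08 and 8.61 on mutant arrays against 30.5 to 104 on wild-type arrays. Erythroid markers summed to 38344 and 39496 on mutant arrays against 22804 to 31046 on wild-type arrays. The 3 of 6 that were higher were the embryonic globins Hba-x, Hbb-y and Hbb-bh1, of which Hbb-bh1 was above the filter on mutant arrays only. The others did not pass, with -0.004 for Hba-a1, -0.46 for Alas2 and 0.31 for Klf1. Macrophage markers summed to 1805 and 1846 on mutant arrays against 1125 to 1456 on wild-type arrays, with 1 of 7 higher, and adrenal and gonad markers to 2205 and 2382 on mutant arrays against 1777 to 2059 on wild-type arrays, with 0 of 3 past the threshold. Neural and glial markers summed to 4099 and 4614 on mutant arrays against 3498 to 3869 on wild-type arrays, with 0 of 6 tested genes past the threshold and 10 below the filter. No marker was listed at 0 on any array. In whole organs, fewer cells of a type and less RNA per cell cannot be told apart, and the part that these shifts have in the results below was not tested.

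**Figure D1:**
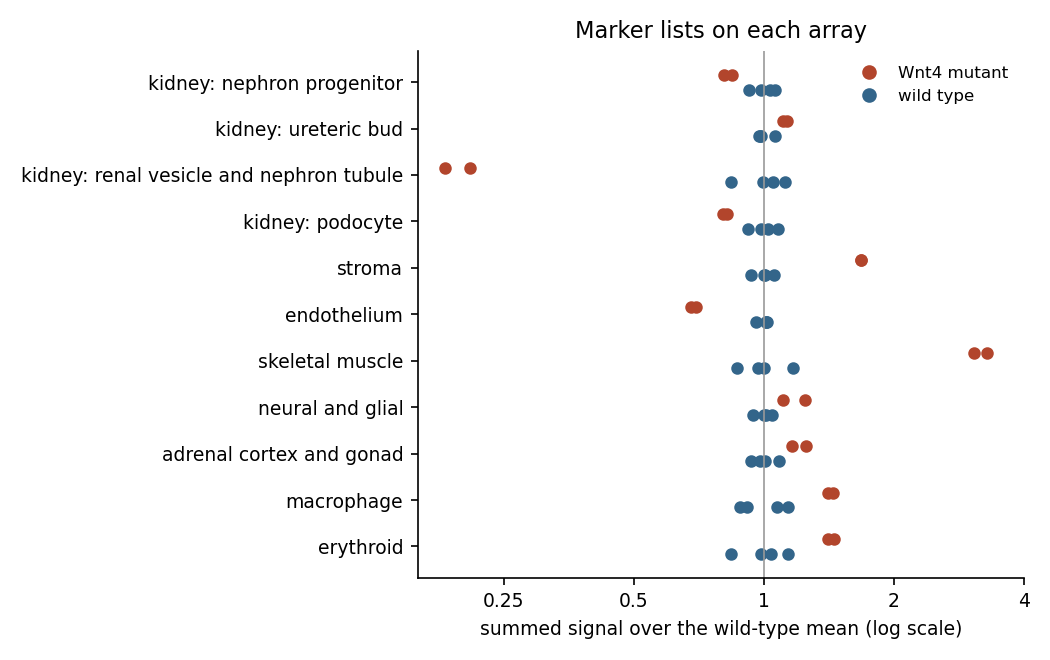
Summed probe set signal of each marker list on each array, divided by the mean of the 4 wild-type arrays (horizontal, log scale). Each point is an array, Wnt4 mutant above wild type in each row. The mutant arrays lie far to the left for renal vesicle and tubule markers and to the right for stromal and skeletal muscle markers. Podocyte sums are mostly Tcf21, a gene also in the stromal list.

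Of the 44 members, 36 were tested, and 4 passed the threshold (adjusted p under 0.05 over all probe sets): Ntn1 and Efnb3 were higher in Wnt4 mutant kidneys, and Sema4d and Ephb3 were lower. That is 11.1% of the members tested, against 11.5% of the 6081 genes tested, so the share was near the background. By direction, 2 of 36 rose where 5.13% of all genes (4.65% of all probe sets) did, and 2 fell where 6.35% of all genes (6.11% of all probe sets) did. The mutant arrays lay above every wild-type array for 9 members (25%, against 19.3% of all genes) and below every one for 5 (13.9%, against 19.9%). Of these 5, Epha3 entered the test only through wild-type arrays, so its place below them was set by the filter. The other 8 members, Efna5, Sema3e, Sema6a, Sema6b, Epha5, Epha6, Epha7 and Robo3, read between 6.62 and 80.2 on all arrays and stayed below the filter.

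Among 21 tested ligands 2 rose and 1 fell (14.3%), and the median difference was 0.13. Among 14 tested receptors 0 rose and 1 fell (7.14%), and the median was 0.20. The median over all genes was 0.01. Positive differences were found for 16 of the 21 ligands and 9 of the 14 receptors, against 51.4% of all genes. The receptors with a negative difference include Epha3, which was tested only through wild-type arrays. The ligands' count moved with the arrays used: it was 11 of 20 without mutant replicate 2, where their median was 0.29, and 11 of 21 without wild-type replicates 2 and 4. With no filter, all 25 ligands had a median of 0.11 and all 18 receptors 0.20. The order of the medians was not fixed. When only probe sets above the 60th percentile were kept, ligands had 0.15 and receptors 0.13. Without mutant replicate 2, ligands had 0.29 and receptors 0.25. Without wild-type replicate 2, ligands had 0.14 and receptors 0.11. The other alternatives kept the receptors' median above the ligands', among them the one without wild-type replicates 2 and 4 (ligands 0.023, receptors 0.11). Unc50 had -0.03 (limma, adjusted p = 0.904).

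**Figure D2:**
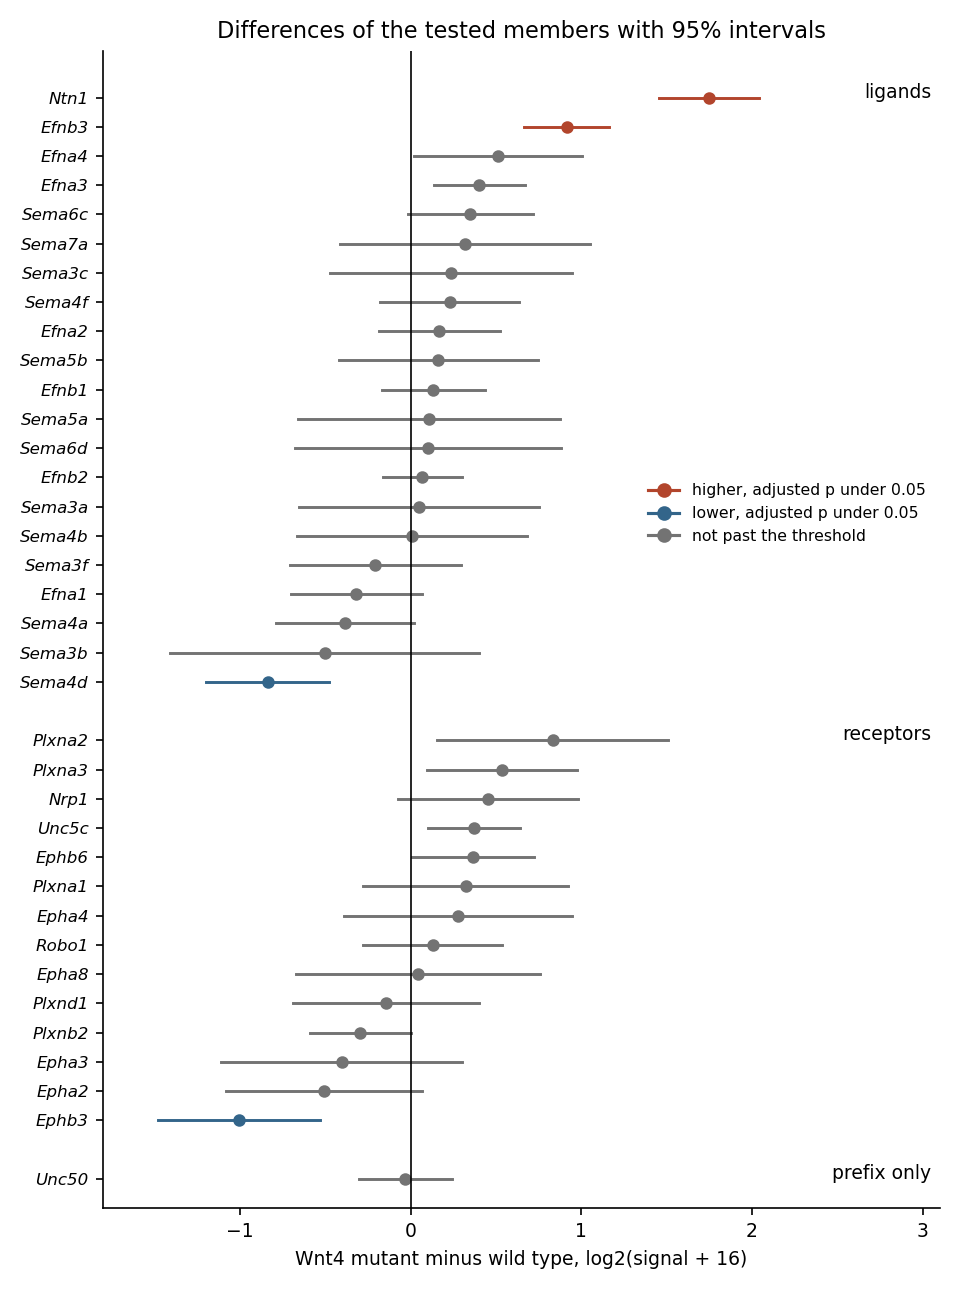
Differences of the 36 tested members in log2(signal + 16), Wnt4 mutant minus wild type (horizontal), with 95% intervals from limma as bars, ligands above receptors. Red points passed the threshold higher in the mutant and blue points lower. Most intervals include 0, and Ntn1 stands farthest from it.

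Netrin-1 showed the largest difference of any tested member. Ntn1, known in the embryonic mouse kidney as a product of stromal progenitors, read 2516 and 2473 on the mutant arrays, against 858, 734, 621 and 731 on the wild-type arrays. The groups lay far apart, and the mutant arrays differed from each other by less than the wild-type arrays did. The means were 2495 ± 30.7 in the mutant (SD, n = 2) and 736 ± 97.2 in the wild type (SD, n = 4), a rise of 1.75 ± 0.13 (SE) or 3.36-fold (limma, adjusted p = 9.77e-05). The call held under all 15 alternatives, at 1.63 to 1.82. Foxd1, the stromal marker given above, differed by 1.75 on the same scale, and its part in the Ntn1 result was not tested. A dimmer Ntn1 probe set, below the filter on all arrays, read 64.3 and 84.1 in the mutant and 14.49 to 61.4 in the wild type.

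Of the netrin receptors, Unc5c, which mediates repulsion from netrin in axons, was the Unc5 gene measured. It read 1444 and 1481 on mutant arrays, against 1253, 1072, 1216 and 988 on wild-type arrays. Both mutant arrays were above all wild-type arrays, but the difference of 0.37 (95% interval 0.10 to 0.64) did not pass (limma, adjusted p = 0.0791). Neo1, a netrin receptor outside the symbols of the rule, had 0.19 (limma, adjusted p = 0.598; 95% interval -0.25 to 0.63). Dcc stayed below the filter.

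Of the 3 transmembrane ephrins, 1 passed. Efnb3, best known as a midline barrier to axons in the mouse spinal cord, read 1186 and 1114 on mutant arrays, against 657, 592, 601 and 562 on wild-type arrays. The groups were clear of each other, with means of 1150.4 ± 51.1 (SD, n = 2) in the mutant and 603 ± 39.4 (SD, n = 4) in the wild type. Efnb3 rose by 0.92 ± 0.11 (SE), or 1.89-fold (limma, adjusted p = 0.00107), and the call held under all 15 alternatives at 0.75 to 0.96. A second Efnb3 probe set went the same way, with 508 and 429 in the mutant against 316, 363, 249 and 300.4 in the wild type, and did not pass (0.59, adjusted p = 0.0656).

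Efnb2, the ephrin of arterial endothelium that also occurs in epithelia, read 1660.2 and 1923 in the mutant, against 1759, 1754, 1756 and 1554 in the wild type. The mutant arrays lay on both sides of the 3 closest wild-type arrays, and the difference was 0.07 (95% interval -0.16 to 0.30, limma adjusted p = 0.726). Efnb1 read 563 and 476 in the mutant, against 465, 500.3, 425 and 497 in the wild type, with overlapping groups and a difference of 0.13 (95% interval -0.17 to 0.44).

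Of the EphB receptors, 2 were measured and 1 passed. Ephb3, a kinase receptor of B ephrins that is a target of Wnt and beta-catenin signalling in the mouse intestine, fell in the mutant. It read 153 and 127 on mutant arrays, against 362, 312, 283 and 236 on wild-type arrays. The groups did not overlap, and the means were 139.7 ± 18.2 in the mutant (SD, n = 2) and 298 ± 52.5 in the wild type (SD, n = 4). The difference was -1.003 ± 0.21 (SE; limma, adjusted p = 0.0176). The call rested on having both mutant arrays: without replicate 1 the difference was -1.12 (adjusted p = 0.0702), and without replicate 2 it was -0.88 (adjusted p = 0.148). Ephb6, an Eph receptor without kinase activity, read 314 and 297 in the mutant, against 237, 245, 237 and 216 in the wild type. Its mutant arrays were above all wild-type arrays, without passing (0.36, limma adjusted p = 0.179). Another Ephb6 probe set gave 0.09 with overlapping groups (adjusted p = 0.891).

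The promoter window of Ephb3 is shown because Ephb3 was the only receptor among the members to pass. It spans chr16:21204545-21204844 on the plus strand of GRCm38.p6 (RefSeq), from 250 bases before the annotated start to 50 after it, and capitals mark the motifs found.
Ephb3: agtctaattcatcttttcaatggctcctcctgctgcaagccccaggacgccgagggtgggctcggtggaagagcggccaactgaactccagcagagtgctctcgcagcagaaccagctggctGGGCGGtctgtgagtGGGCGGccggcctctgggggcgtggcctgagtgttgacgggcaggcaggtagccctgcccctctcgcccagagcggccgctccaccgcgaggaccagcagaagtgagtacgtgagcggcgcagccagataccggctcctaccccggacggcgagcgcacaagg
The motifs searched on both strands were the TCF/LEF core CTTTGA, the GC box GGGCGG and the TATA box TATAAA, and none overlapped another here. The window holds 2 GC boxes, at 128 and 113 bases before the start, and neither of the other motifs. These matches describe the letters of this window and say nothing of binding.

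**Figure D3:**
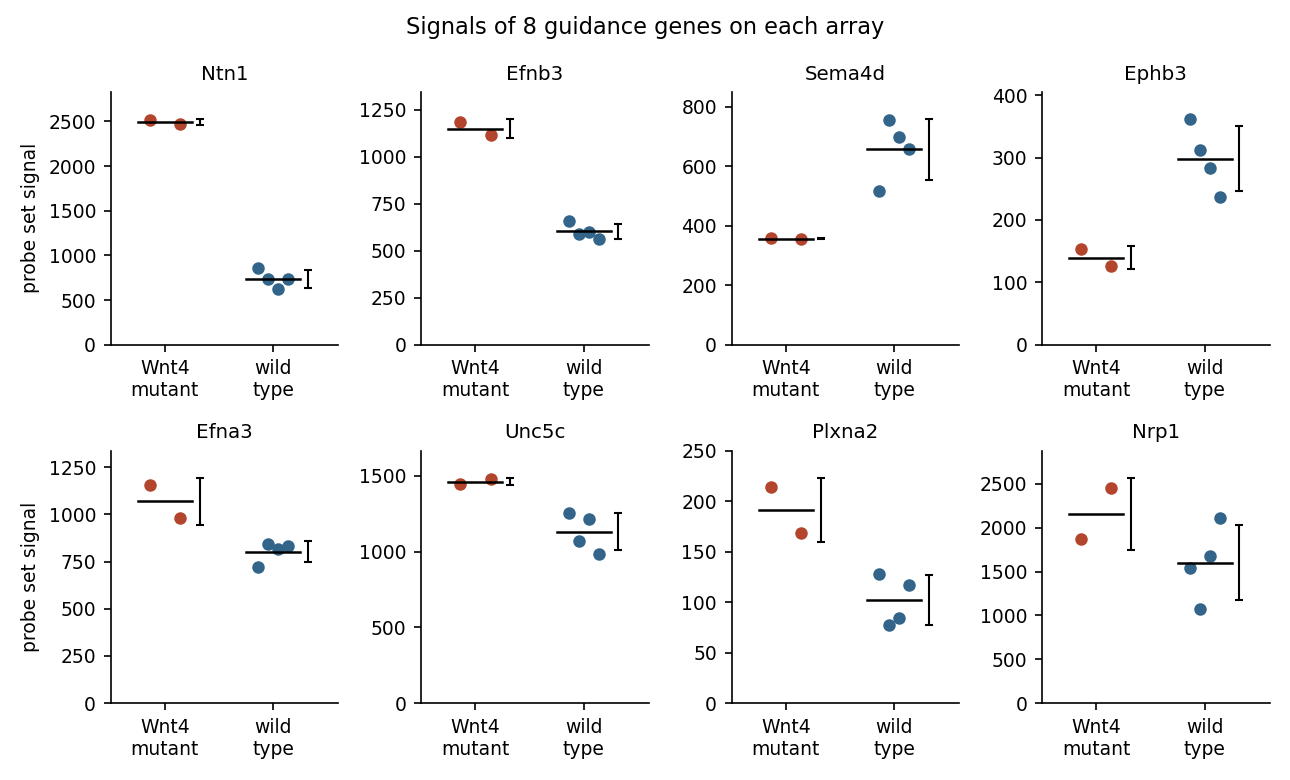
Probe set signal (vertical, linear from 0) of 8 members on every array, Wnt4 mutant (2 arrays) left of wild type (4 arrays). Lines are means and bars SD. Ntn1, Efnb3, Sema4d and Ephb3 (upper row) passed the threshold, while in the lower row Efna3, Unc5c and Plxna2 have both mutant arrays above the wild type without passing and Nrp1 overlaps.

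None of the A ephrins or EphA receptors passed, among 4 tested of each. Efna3 came nearest. It read 1158 and 980.4 on mutant arrays, against 722, 840.4, 816 and 832 on wild-type arrays, with the mutant arrays above all others (0.40, limma adjusted p = 0.0603). It passed with array weights (0.42, adjusted p = 0.0282) and when only probe sets above the 60th percentile were tested (0.40, adjusted p = 0.0444). Efna4 read 302 and 267 in the mutant, against 204, 193, 243 and 149 in the wild type, again without overlap (0.51, adjusted p = 0.171). Efna1 pointed the other way, with 271 and 366 in the mutant against 433, 347, 432 and 384 in the wild type and overlapping groups (-0.32, adjusted p = 0.276). Efna1, Efna3 and Efna4 are consecutive protein-coding genes on chromosome 3 in the RefSeq table of GRCm38.p6, so neighbouring ligand genes carried values of both signs. Efna2 read 331 and 423 in the mutant, against 343, 312, 359.5 and 311 in the wild type (0.17, adjusted p = 0.551).

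Among the EphA receptors, Epha4, which can bind ephrins of both classes, read 192 and 202 in the mutant, against 219.95, 102, 150.1 and 190.5 in the wild type. The mutant values fell inside the wild-type range (0.28, 95% interval -0.39 to 0.94). Epha2, a receptor common in epithelia, read 121 and 142 in the mutant and 195, 263, 171 and 157 in the wild type, with no overlap (-0.51, limma adjusted p = 0.244). Epha3 read 79.0 and 96.6 in the mutant, below the filter level, and 156, 101, 133 and 100.3 in the wild type (-0.40, adjusted p = 0.468). It entered the test only through wild-type arrays, so its negative sign carries no weight. Epha8 had 0.04 (95% interval -0.67 to 0.76).

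Semaphorins were the largest family, with 16 members, of which 13 were tested and 1 fell (median 0.10). Sema4d, a transmembrane semaphorin that signals through plexin-B receptors, read 358 and 355.5 on mutant arrays, against 516, 755, 698 and 656 on wild-type arrays. The mutant arrays were nearly identical and below every wild-type array. The means were 357 ± 1.69 in the mutant (SD, n = 2) and 656 ± 102 in the wild type (SD, n = 4), a difference of -0.84 ± 0.16 (SE; limma, adjusted p = 0.0115). As with Ephb3, leaving out a mutant array ended the call, with -0.84 (adjusted p = 0.0870) without replicate 1 and -0.83 (adjusted p = 0.0969) without replicate 2.

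Of 3 Sema4d promoter windows in the RefSeq table the most upstream is shown, beside that of Ephb3, as the other member that fell. It spans chr13:51756634-51756933 on the minus strand of GRCm38.p6, printed in the direction of the gene.
Sema4d: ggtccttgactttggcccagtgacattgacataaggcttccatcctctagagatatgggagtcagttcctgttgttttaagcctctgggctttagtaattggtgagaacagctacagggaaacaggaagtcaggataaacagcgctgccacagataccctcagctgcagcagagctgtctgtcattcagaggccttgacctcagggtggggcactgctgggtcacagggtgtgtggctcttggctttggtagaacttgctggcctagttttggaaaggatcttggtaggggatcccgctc
No capitals appear, because none of the 3 motifs occurs in these letters. Its GC content was 52.0%, against 66.7% for the Ephb3 window. Ntn1 and Efnb3, the members that rose, had no entry in the promoter table.

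The other class 4 semaphorins did not pass. Sema4f read 470.4 and 391 in the mutant, against 287, 365, 428 and 387 in the wild type, and the groups overlapped (0.23, 95% interval -0.18 to 0.64). Sema4a read 235 and 327 in the mutant, against 368, 412, 319.7 and 373 in the wild type (-0.38, limma adjusted p = 0.210). Sema4b had 0.01 (95% interval -0.66 to 0.68) at its representative probe set. Beside the fall of Sema4d, the signs of Sema4a (95% interval -0.79 to 0.02), Sema4b and Sema4f were not settled, as each interval included 0.

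None of the secreted class 3 semaphorins passed. Sema3a, a repellent ligand of neuropilin-1, read 315 and 202 in the mutant, against 339, 273, 148 and 253 in the wild type, so that the mutant values lay inside the wild-type range (0.05, 95% interval -0.66 to 0.75). Sema3c had 0.24 and Sema3f, a ligand of neuropilin-2, had -0.21, with 95% intervals of -0.47 to 0.94 and -0.71 to 0.29. Sema3b read 72.5 and 107 in the mutant, against 113, 100.3, 104 and 249.8 in the wild type (-0.50, 95% interval -1.41 to 0.40). The remaining tested semaphorins, Sema5a, Sema5b, Sema6c, Sema6d and Sema7a, had 0.11, 0.16, 0.35, 0.10 and 0.32. Of these, Sema6c, a transmembrane ligand of plexin-A receptors, had both mutant arrays (356.5 and 343) above the wild type (236, 272, 312 and 270.4), without passing (limma, adjusted p = 0.211).

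All 5 plexins were tested and 0 passed. Plxna2 read 214 and 169 on mutant arrays, against 128, 77.15, 84.7 and 117 on wild-type arrays, a difference of 0.83 (95% interval 0.16 to 1.51, limma adjusted p = 0.113). Plxna3 read 611 and 722 in the mutant, against 465, 564, 478 and 336 in the wild type (0.53, 95% interval 0.10 to 0.97, adjusted p = 0.117). In both, the mutant arrays lay above all wild-type arrays. Plxna1 read 212 and 188 in the mutant, against 123, 126, 191 and 200.4 in the wild type, with overlap (0.32, adjusted p = 0.495).

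Plxnb2, a receptor of class 4 semaphorins, read 1225 and 1145 in the mutant, against 1765, 1289, 1409 and 1399 in the wild type. The mutant arrays were the lowest of the 6, without passing (-0.29, 95% interval -0.59 to 0.0013, limma adjusted p = 0.191). Plxnd1, a receptor of Sema3e with a known role in endothelium, read 1400.1 and 1251 in the mutant, against 2212, 1116, 1202.5 and 1540.3 in the wild type, with the mutant inside the wild-type range (-0.14, adjusted p = 0.757). Nrp1, the co-receptor shared by class 3 semaphorins and Vegfa, read 1868 and 2451.5 in the mutant, against 1541, 1074.5, 1676 and 2113 in the wild type (0.46, 95% interval -0.07 to 0.98, adjusted p = 0.254). Its second probe set, with 983 and 1369.6 in the mutant against 788.5, 814, 947 and 525 in the wild type, separated the groups without passing (0.62, adjusted p = 0.119). Within the semaphorin system, the ligand Sema4d therefore passed and no receptor did, but no test was made of ligand against receptor.

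Of the Slit receptors, Robo1 read 355 and 293 in the mutant, against 304, 246, 348 and 282 in the wild type. The groups overlapped, with a difference of 0.13 (95% interval -0.28 to 0.54, limma adjusted p = 0.699). In a list of 11 genes tied to Slit and Robo in ureteric bud outgrowth, 8 were tested, of which 1 rose and 0 fell (12.5% called, against 11.5% of all genes; median 0.18). The gene that rose was Gpc3, a cell surface proteoglycan that restrains growth, with 9240 ± 609 in the mutant (SD, n = 2) and 3249 ± 1115 in the wild type (SD, n = 4), a difference of 1.56 (limma, adjusted p = 0.00361). Gdnf had 0.14 (95% interval -0.16 to 0.43).

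A list of 48 signal relays below guidance receptors was partly measured, with 34 genes found and 30 tested. In it 5 rose and 1 fell, while 24 stayed short of the threshold (median 0.18), which is 20.0% called against 11.5% of all genes. Src, a kinase recruited by Eph receptors and ephrins, rose by 1.30 (limma, adjusted p = 0.0239), and Dpysl3, a member of the collapsin response mediator family first found downstream of semaphorins, by 1.17 (adjusted p = 0.0466). Dpysl3, counted among the 5, met the filter through the mutant arrays, with only 1 wild-type array above it. Src read 263 and 256 on mutant arrays against 62.4 to 118 on wild-type arrays, near the filter level, with 2 wild-type arrays above it. Abl1, a kinase linked to Robo and Eph signalling, rose by 0.42, the exchange factor Trio by 0.41 and the small GTPase Cdc42 by 0.34 (adjusted p = 0.0379, 0.0404 and 0.0398). Cfl1, the actin-severing protein cofilin, fell by 0.50 (adjusted p = 0.0139). Most of these relays serve many pathways. In a further list, of other guidance ligands and receptors, 0 of 3 tested genes passed.

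Probe sets of the same gene gave a further check on the values. Of 12 members with several probe sets, 5 had more than 1 that was tested, and the signs were the same for Efnb3, Nrp1 and Ephb6 and differed for Sema4b and Plxnb2. At Sema4b the other probe set read 188 and 211 in the mutant, against 294, 306, 235 and 204 in the wild type (-0.34, limma adjusted p = 0.348). At Plxnb2 the other probe set read 904 and 906 in the mutant, against 1296, 246, 1151 and 1271 in the wild type (0.12, adjusted p = 0.923). Wild-type replicate 2 was far below the other wild-type arrays there, while at the brighter Plxnb2 probe set it stood at 1289. No member passed at 2 probe sets, but of the members past the threshold only Efnb3 had a second tested probe set.

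**Figure D4:**
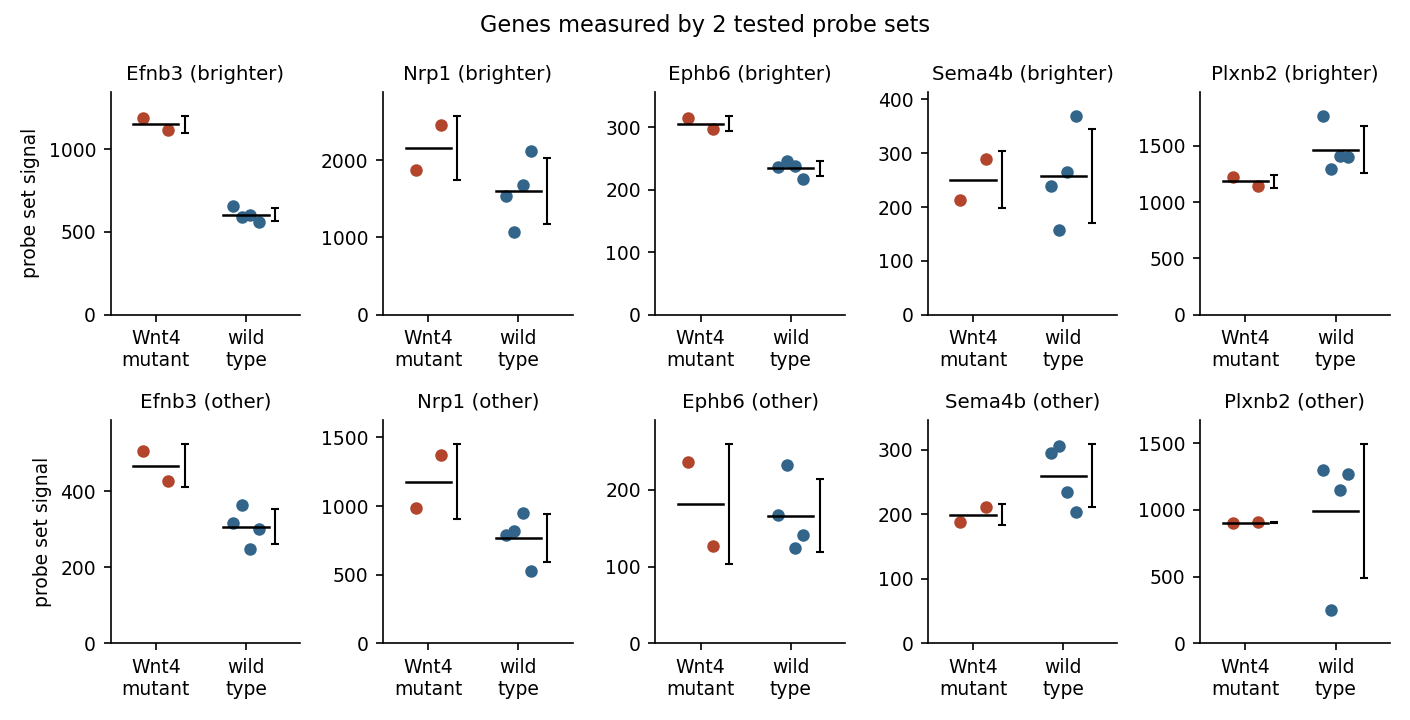
Signals (vertical, linear from 0) of the 5 genes with 2 tested probe sets, brighter probe set above, Wnt4 mutant left of wild type. Points are arrays, lines means and bars SD. Both Efnb3 probe sets separate the groups, and at the other Plxnb2 probe set wild-type replicate 2 reads 246.

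Promoter windows were matched for 38 of the 44 members. A GC box lay in 29 of them (76.3%), against 59.2% of the 6576 measured genes with a window and 35.7% of all 32851 windows in the table. The TCF/LEF core lay in 3 (7.89%, against 13.2% and 16%) and the TATA box in 1 (2.63%, against 10.4% and 13.6%).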

How the data were processed

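Probe set signals (intensity, linear scale) were deposited by the authors, made with GCOS, per the submitters' processing notes; its version and settings are not stated there. The mean without the lowest and highest 2% of values was 500.3 on every array, so arrays were already scaled. Symbols came from the platform annotation, updated by gene identifier to RefSeq GRCm38.p6: 10833 probe sets had 1 symbol, 396 several and 1193 none. The 66 control probe sets were set aside. No further normalization was applied. limma 3.58.1 (R 4.3.3) was fitted to log2(signal + 16) of all 7981 probe sets that passed the filter, without covariates, with a variance trend and Benjamini-Hochberg adjustment. The offset understates changes of dim genes. The fit was tested on simulated data. Members and lists were chosen with earlier results of these data known. The rule for per-array values took every member past the threshold and the 2 members of each family with the highest mean signal. Other members whose arrays are printed (Efna2, Efna4, Efnb1, Epha3, Plxna1, Plxna2, Plxna3 and 4 semaphorins: Sema3a, Sema3b, Sema4a and Sema6c) were chosen after their values were seen, as were the dimmer probe sets. Alternatives were other offsets and filters, quantile normalization, array weights, means over probe sets, a replicate block and leaving out arrays. Whether pools came from separate litters is not stated. The number of arrays limits precision: 2 against 4 arrays can be split in 15 ways.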

Additional observations from a re-analysis of the deposited data

Results flagged for a closer look

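In 2 of the 36 tested members, 1 wild-type array stood apart from the other 3 by Dixon's test on log2 values, a test that marks about 5% of such groups by chance. Efnb2 read 1554 in wild-type replicate 4, against 1754 to 1759 in the other wild-type arrays. Sema3b read 249.8 in the same replicate, against 100.3 to 113 in the others. Neither gene passed the test between groups.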

How the results depend on the processing

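Ntn1 and Efnb3 stayed past the threshold under all 15 alternatives, with adjusted p up to 0.00282 and 0.0228. Leaving out each array in turn gave 2 to 2 members higher and 0 to 2 lower: Sema4d (-0.95 to -0.73 over all alternatives, adjusted p 0.0058 to 0.0969) and Ephb3 (-1.18 to -0.82, adjusted p 0.00514 to 0.148) were lost without either mutant array, when 2.53% and 2.40% of all probe sets were called lower. A lone mutant array was then assumed to vary like the wild-type arrays. With array weights or a filter at the 60th percentile 3 members were higher, Efna3 being added. The replicate block gave the same calls (2 higher, 2 lower). Deviations of same-numbered arrays correlated at 0.003 and -0.015. With 2 mutant arrays, their deviations mirror each other, so these values cannot tell whether the arrays were paired.

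Signs turned only for members that passed nowhere. Over single arrays left out, values ran from -0.001 to 0.338 for Efna2, -0.037 to 0.173 for Efnb2, -0.254 to 0.352 for Sema3a, -0.194 to 0.211 for Sema4b, -0.027 to 0.181 for Sema5a, -0.08 to 0.402 for Sema5b, -0.046 to 0.348 for Sema6d, -0.084 to 0.043 for Unc50, -0.121 to 0.204 for Epha8, -0.271 to 0.054 for Plxnd1 and -0.001 to 0.263 for Robo1. Quantile normalization gave -0.037 for Sema4b and -0.017 for Epha8, and the mean of probe sets -0.167 for Sema4b. The replicate block gave -0.256 for Sema3a, -0.015 for Sema5b, -0.041 for Sema6d and 0.115 for Unc50. Without wild-type replicates 2 and 4, a choice made after seeing the data, the calls were the same 4, and values were -0.18 for Sema3c, -0.015 for Sema4b, -0.04 for Sema5a, -0.036 for Sema5b, -0.073 for Sema6d, 0.001 for Unc50 and -0.013 for Robo1. The cause was not tested.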
